A study of Mus musculus with 16 samples.

Results

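Dystrophin mRNA was read by 4 probe sets on these arrays, namely all those of 45101 whose annotated gene symbol is Dmd. A probe set is a group of short probes designed from 1 transcript record, and its intensity is the brightness that the authors summarised from those probes. Probe sets 1448665_at and 1417307_at were designed from the RefSeq mRNA record of dystrophin, 1430320_at from a cDNA clone record and 1443315_at from a sequence tag. Where on the transcript each one binds, and therefore which dystrophin isoforms it reads, is not given in the sources used here. Each probe set is described on its own, because the brightness of different probe sets is not on a shared scale.

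The study set mouse muscle that overexpresses the glycosyltransferase gene Galgt2 against muscle that does not, with and without dystrophin, on 16 arrays in 3 array sets. The first set held gastrocnemius of male mice aged 2 months. Its groups were Galgt2 transgenic and dystrophin-deficient (transgenic mdx, a cross of C57BL/10J and C57BL/6J), dystrophin-deficient (mdx, C57BL/10J), Galgt2 transgenic (C57BL/6J) and wild type (C57BL/6J), with 2 arrays each. The second set held gastrocnemius of C57BL/10J mdx males of the same age, injected with an adeno-associated virus carrying Galgt2 (AAV-Galgt2) or, in the contralateral leg, with phosphate-buffered saline (PBS), with 2 arrays each. All animals of the second set were therefore dystrophin-deficient, in both groups. The third set held the mouse muscle cell line C2C12 stably transfected with Galgt2, as differentiated myotubes and as myoblasts, and C2C12 without it, as myotubes and as myoblasts, with 1 array each. The promoter that drives the transgene, the viral dose, and whether the transfected line is 1 clone are not given in the sources used here. Nothing in the labels says that replicate arrays came from separate mice, and which AAV-Galgt2 and PBS muscles share a mouse is not given in the sources used here either, so that comparison is unpaired. The p-values therefore speak only of array-to-array spread, which may be technical. The mdx and injected mice are C57BL/10J and the wild-type mice C57BL/6J, so genotype and substrain cannot be told apart between them.

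Dystrophin links the actin cytoskeleton of the muscle fibre to a complex of membrane proteins, which bind laminin outside the cell, and so protects the fibre membrane during contraction. The gene is very long and has several start sites. The full-length muscle isoform starts near its 5′ end, and short isoforms that keep only the C-terminal part start inside it. The short isoform Dp71 is made in many tissues and in myoblasts, and the full-length muscle isoform is switched on when myoblasts differentiate. Mice of the mdx strain carry a nonsense point mutation in Dmd that removes full-length dystrophin, while the rest of the transcript sequence is unaltered, so a probe set can still bind RNA made from the mdx allele.

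Both Dmd start sites that the RefSeq promoter table (GRCm38.p6) holds are shown here because they stand for the 2 kinds of dystrophin transcript, long and short, that a probe set near the shared end of the gene cannot separate. Each line gives the 250 bases before a start, on the forward strand of the X chromosome. Capitals mark the matches to 3 motifs, searched on both strands. The TATA box was searched as TATAAA. The GC box was searched as GGGCGG. The E-box, the letters that myogenic regulators such as MyoD bind, was searched as CANNTG.

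Dmd start, chrX:82948620-82948869: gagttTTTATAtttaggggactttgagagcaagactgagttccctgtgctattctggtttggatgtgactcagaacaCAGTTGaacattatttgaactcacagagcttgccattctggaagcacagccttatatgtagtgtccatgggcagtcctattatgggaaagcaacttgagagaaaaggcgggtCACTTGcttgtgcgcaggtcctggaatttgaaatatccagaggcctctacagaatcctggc
Dmd start, chrX:85048045-85048294: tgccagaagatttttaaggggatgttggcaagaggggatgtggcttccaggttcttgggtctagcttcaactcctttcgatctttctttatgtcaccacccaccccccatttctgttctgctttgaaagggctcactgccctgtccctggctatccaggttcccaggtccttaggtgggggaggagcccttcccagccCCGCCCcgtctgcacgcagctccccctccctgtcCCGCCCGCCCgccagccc

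The starts lie 2099 kb apart. The upstream one, which is that of the full-length muscle isoform, holds 1 TATA box match and 2 E-box matches and no GC box match, with a GC content of 45.2%, above that of 24.5% of the promoters in the table. Its TATA box match reads on the reverse strand and lies at the end of the 250 bases that is farthest from the start. The downstream one, which is that of Dp71, holds 3 GC box matches, of which 2 overlap, with no match to the other motifs and a GC content above that of 72.1% of the promoters in the table. Over the same 250 bases, 12.4% of the 32851 promoters in the table hold the TATA box, 32.7% the GC box and 66.2% the E-box, and the median GC content is 52.4%. These letter matches describe the sequence only.

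Array medians ran from 57.69 to 63.95 in the first set, 25.35 to 25.71 in the second and 57.18 to 60.37 in the cell line set, and no level was set against one of another array set. Replicate muscle arrays correlated at r from 0.972 (mdx) to 0.991 (AAV-Galgt2) over all probe sets on the log2 scale, and 0 pairs of arrays were identical. The log2 ratio of the 3′ to the 5′ Gapdh control probe set, a sign of RNA integrity and amplification, was 1.23 in replicate 2 of transgenic mdx and between 0.18 and 0.48 on the other arrays of the first set. Skeletal muscle markers were present on every muscle array: the 16 muscle fibre genes listed summed to 168238 to 168252 in transgenic mdx, 179289 to 180557 in mdx, 168912 to 181368 in transgenic and 181238 to 188942 in wild type. In the second set, with its lower array medians, they summed to 102724 to 103753 in AAV-Galgt2 and 92380 to 95547 in PBS muscle.

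Dystrophin transcript was reduced in mdx muscle against wild type, and the size of the reduction in that comparison depended on the probe set. Probe set 1417307_at had an intensity of 321.0 and 135.6 in mdx, against 2112 and 2211 in wild type. The mdx arrays were both far below the wild-type ones, and they differed from each other more than 2-fold. Its log2 change was -3.37 ± 0.36 (SE, limma, 2 arrays each, adjusted p = 0.00563), a 10.40-fold fall. Probe set 1448665_at had 367.5 and 281.1 in mdx, against 2257 and 2293 in wild type. It fell by 2.82 ± 0.21 on the log2 scale (adjusted p = 0.00169), with the smallest p of all 45037 probe sets tested. These are 2 of 4 members called lower, and 1.39% of all probe sets were called lower in that comparison. Without wild-type replicate 2, 1417307_at no longer passed (-3.34, adjusted p = 0.0556), while 1448665_at passed with each of the 12 muscle arrays left out in turn.

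The other members are dim, and neither passed. Probe set 1443315_at had 34.3 and 31.7 in mdx, against 122.1 and 73.0 in wild type. Both mdx values lie below both wild-type values and below their array's median, with a log2 difference of -1.52 ± 0.45 (adjusted p = 0.106). It passed without transgenic mdx replicate 1 or 2, which enter through the shared variance (adjusted p = 0.0282 either way). Probe set 1430320_at had 114.7 and 34.3 in mdx, against 90.5 and 104.4 in wild type. Here the groups overlap, since mdx replicate 1 is above both wild-type arrays, and the log2 difference was -0.63 ± 0.52 (adjusted p = 0.635). It was 0.24 without mdx replicate 2, with the sign turned.

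**Figure D1:**
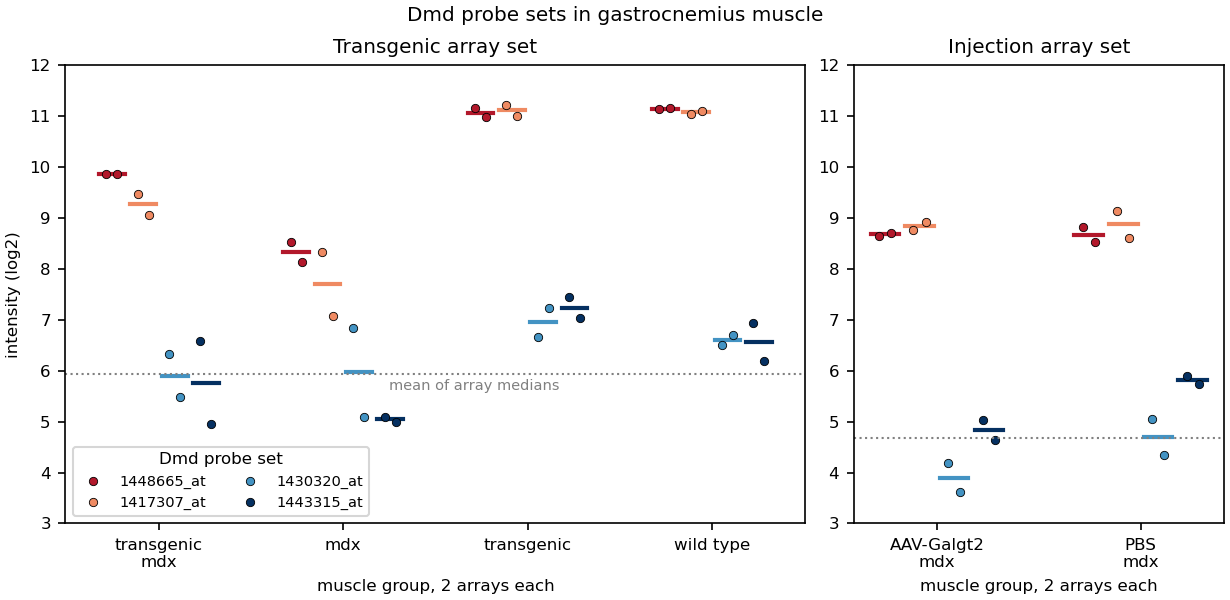
Intensity (log2) of the 4 Dmd probe sets on each muscle array, with the 2 arrays of a group as points and their mean as a bar. The left panel is the transgenic array set and the right panel the injection array set, and the dotted line is the mean of the array medians of that set. In the left panel 1448665_at and 1417307_at are lowest in mdx, next in transgenic mdx and highest in transgenic and wild-type muscle. For 1430320_at the mdx range overlaps that of every other group there, while transgenic mdx lies below transgenic and wild-type muscle.

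The unequal reduction was measured within arrays, as the ratio of one probe set to another on the same array. The fall of 1417307_at in mdx against wild type was the greater one beside 1430320_at (difference of log2 changes -2.74, 95% interval -3.48 to -2.00) and beside 1443315_at (-1.86, 95% interval -2.90 to -0.81). The change of 1430320_at minus that of 1448665_at was 2.19 (95% interval 1.17 to 3.22), and that of 1443315_at minus that of 1448665_at was 1.31 (95% interval 0.29 to 2.32). The bright pair differed from each other by -0.55 (1417307_at minus 1448665_at), with an interval of -1.16 to 0.07 that holds 0. Their difference was -0.65 in transgenic mdx against transgenic muscle (95% interval -1.26 to -0.03). Over both pairs of groups it was -0.60 (95% interval -1.03 to -0.16), and neither of these intervals holds 0. In mdx against wild type the changes of the dim pair differed by 0.89, with an interval of -0.33 to 2.10 that holds 0. The dim probe sets were not apart from 1448665_at in transgenic mdx against transgenic muscle. There 1443315_at minus 1448665_at was -0.27 (95% interval -1.28 to 0.75), and 1430320_at minus 1448665_at was 0.16 (-0.87 to 1.18). Beside 1417307_at the difference there was -0.38 for 1443315_at (-1.43 to 0.67) and -0.80 for 1430320_at (-1.54 to -0.06), each as 1417307_at minus the other. On the wild-type arrays 54.2% to 61.2% of all probe sets were dimmer than the dim members, and 93.6% to 94.2% were dimmer than the bright ones. The part of brightness in the unequal change was not tested.

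With the transgene present, all Dmd probe sets were lower by value in mdx, and none passed the test. Probe set 1448665_at had 928.0 and 938.3 in transgenic mdx, against 2291 and 2018 in transgenic muscle, a log2 difference of -1.20 ± 0.21 (adjusted p = 0.261). Probe set 1417307_at had 707.5 and 534.9 in transgenic mdx, against 2392 and 2056 in transgenic muscle, with -1.85 ± 0.36 (adjusted p = 0.504). In both probe sets each transgenic mdx array is below both transgenic arrays. Neither difference passed after adjustment in limma, nor did any other fall: 9 of 45037 probe sets (0.0200%) were called, all of them higher, and 1950 had an unadjusted p under 0.05. The unadjusted p was 0.000151 for 1448665_at and 0.000436 for 1417307_at. Probe set 1443315_at had 95.6 and 31.0 in transgenic mdx, against 173.5 and 131.2 in transgenic muscle (-1.47 ± 0.45, adjusted p = 1.00). It was at -0.66 without transgenic mdx replicate 2 and at -2.28 (adjusted p = 0.0545) without replicate 1. Probe set 1430320_at had 79.7 and 45.0, against 102.0 and 150.5 (-1.05 ± 0.52, adjusted p = 1.00). For these as well the groups do not overlap, and all 4 members are thus lower in transgenic mdx than in transgenic muscle by value, with 0 of 4 called.

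Taking both pairs of groups at once, 4 dystrophin-deficient arrays were set against 4 dystrophin-intact ones. The mean log2 intensity of 1448665_at was 9.10 in deficient and 11.11 in intact muscle (limma -2.01 ± 0.15, adjusted p = 0.00294), and that of 1417307_at was 8.48 in deficient and 11.10 in intact muscle (-2.61 ± 0.26, adjusted p = 0.0134). Both fell, beside 0.206% of all probe sets called lower. Their deficient and intact arrays did not overlap, and the two-sided exact permutation test gave p = 0.0286 for each, which is the smallest p that 70 arrangements of 4 against 4 allow. For 1443315_at the means were 5.41 and 6.90 (adjusted p = 0.0699, exact permutation p = 0.0571), and for 1430320_at they were 5.94 and 6.78 (adjusted p = 0.357, exact permutation p = 0.114). Without wild-type replicate 1 or 2 or transgenic mdx replicate 2, 1417307_at lost its call (adjusted p = 0.0671, 0.0629 and 0.0634), and without transgenic mdx replicate 1, 1443315_at gained one (-1.90, adjusted p = 0.0224).

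With the transgene alone, no difference in Dmd passed the test. In transgenic against wild-type muscle 1448665_at differed by -0.08 (95% interval -0.54 to 0.38) and 1417307_at by 0.04 (95% interval -0.77 to 0.84), and their replicate values overlap. The dim probe sets differed by 0.68 ± 0.45 (1443315_at, adjusted p = 0.645) and 0.35 ± 0.52 (1430320_at, adjusted p = 0.871). None of the 4 was called, against 1.86% of all probe sets.

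In mdx muscle the transgene came with more dystrophin signal on the bright probe sets. Against mdx, transgenic mdx muscle had 1448665_at higher by 1.54 ± 0.21 on the log2 scale (2.90-fold, adjusted p = 0.00524) and 1417307_at by 1.56 ± 0.36 (2.95-fold, adjusted p = 0.0436). Both rose, beside 2.58% of all probe sets called higher. Each transgenic mdx array was above both mdx arrays for these, by the values given above. For 1448665_at the call held with each array left out. For 1417307_at it held in 1 of 12 such fits, that without mdx replicate 1 (2.18), and in the others the adjusted p reached 0.135, with a difference of 0.94 without mdx replicate 2. The dim probe sets differed by 0.72 ± 0.45 (1443315_at, adjusted p = 0.445) and -0.07 ± 0.52 (1430320_at, adjusted p = 0.972). Probe set 1443315_at was at 95.6 in transgenic mdx replicate 1 and at 31.0 in replicate 2, the array with the Gapdh ratio of 1.23. Whether RNA integrity bears on that gap was not tested. Transgenic mdx is the only group of mixed substrain, so the transgene and the cross cannot be told apart in this comparison.

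The level in transgenic mdx was still below that of wild type. Probe set 1448665_at was lower by 2.44-fold (-1.29 ± 0.21, adjusted p = 0.00704) and 1417307_at by 3.51-fold (-1.81 ± 0.36, adjusted p = 0.0201), beside 2.07% of all probe sets called lower. Without wild-type replicate 1 or 2 neither passed (adjusted p = 0.0518 and 0.0606 for 1448665_at, 0.100 and 0.118 for 1417307_at), nor did 1417307_at without transgenic mdx replicate 2 (0.139). The values were -0.79 ± 0.45 for 1443315_at (adjusted p = 0.389) and -0.70 ± 0.52 for 1430320_at (adjusted p = 0.533), and 1443315_at was at 0.02 without transgenic mdx replicate 2 and at -1.61 (adjusted p = 0.0333) without replicate 1. The order of the groups on 1448665_at was wild type, transgenic, transgenic mdx and mdx from high to low, with wild type and transgenic overlapping and the other neighbours apart. On 1417307_at transgenic and wild type changed places within their overlap. The interaction, which asks whether the transgene response differs between mdx and dystrophin-intact muscle, was 1.62 ± 0.29 for 1448665_at (adjusted p = 0.140) and 1.52 ± 0.51 for 1417307_at (adjusted p = 0.333), which was 0.90 without mdx replicate 2. It was -0.42 ± 0.74 for 1430320_at (adjusted p = 0.915) and 0.05 ± 0.64 for 1443315_at (adjusted p = 0.994). None of these passed, and limma called 2 probe sets in all (0.00444%), with 4623 at an unadjusted p under 0.05. All 3 of these kinds of comparison, with the mdx effect, the transgene effect and the interaction, share the mdx arrays.

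**Figure D2:**
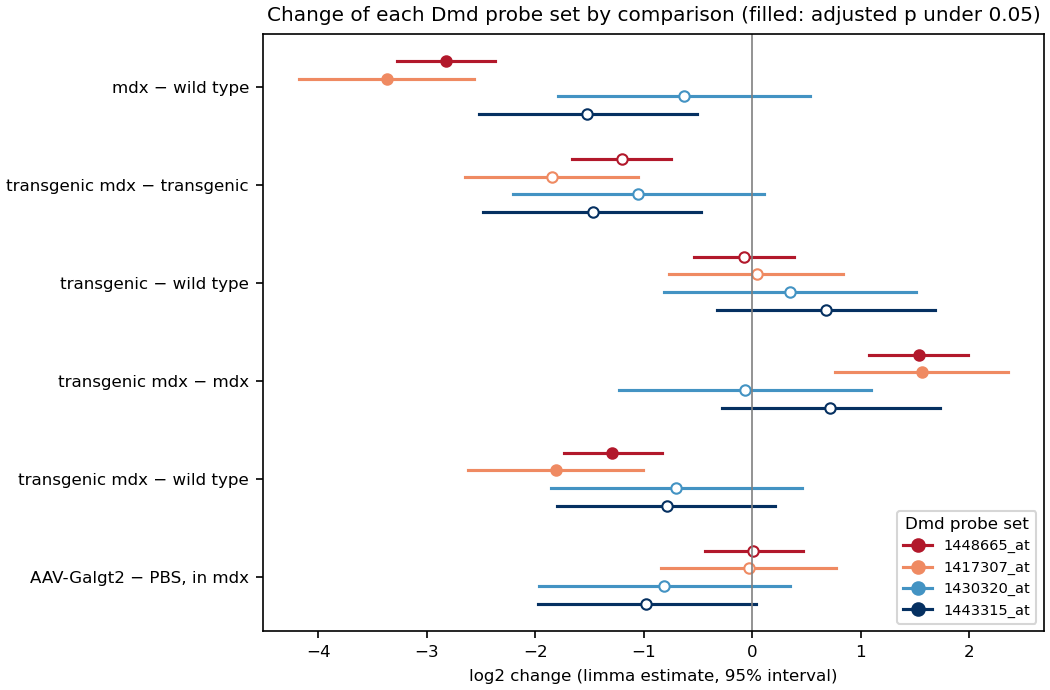
Log2 change of the 4 Dmd probe sets in 6 comparisons, as the limma estimate with its 95% interval, filled where the adjusted p over all probe sets is under 0.05. Filled points occur for 1448665_at and 1417307_at in mdx minus wild type, transgenic mdx minus mdx and transgenic mdx minus wild type, and for no probe set in the other 3 comparisons.

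Muscle injected with AAV-Galgt2 showed no such rise. Probe set 1448665_at had 403.0 and 419.6 in AAV-Galgt2 muscle, against 452.9 and 366.8 in PBS muscle. The AAV-Galgt2 arrays lie between the PBS arrays, with a log2 difference of 0.01 (95% interval -0.44 to 0.47). Probe set 1417307_at had 432.8 and 488.0 in AAV-Galgt2 muscle, against 564.7 and 391.8 in PBS muscle, again inside the PBS range (-0.03, 95% interval -0.84 to 0.77). The dim probe sets were lower on both AAV-Galgt2 arrays than on both PBS arrays: 1443315_at had 32.7 and 24.9, against 59.6 and 52.9 with PBS (-0.98 ± 0.45, adjusted p = 0.732), and 1430320_at had 18.3 and 12.2, against 33.4 and 20.4 with PBS (-0.81 ± 0.52, adjusted p = 0.828). Limma called 0 of 45037 probe sets here (0%), with 3126 at an unadjusted p under 0.05. Set against each other, the transgene response in mdx exceeded the AAV-Galgt2 response on 1448665_at by 1.53 ± 0.29 (adjusted p = 0.0485), beside 0.566% of all probe sets called higher, and this call was lost with 10 of the 12 arrays left out in turn. The comparison was chosen after the values were seen, and it sets a change in one array set against a change in another.

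Cells other than fibres also differ between these groups, and dystrophin is shared with smooth muscle and nerve. Of 15 macrophage genes 12 rose in mdx against wild type, beside 1.97% of all probe sets called higher, and their intensities summed to 24306 to 25559 in transgenic mdx, 44591 to 47412 in mdx, 14886 to 24561 in transgenic and 8352 to 10920 in wild type. Of 15 regeneration genes 7 rose in mdx against wild type, beside 1.97% of all probe sets called higher, and 1 rose in transgenic mdx against mdx, beside 2.58%. In transgenic against wild-type muscle 8 of the 15 rose, beside 525 of 45037 probe sets called higher, so the rise is not particular to mdx. Regeneration sums were 37746 to 39677 in transgenic mdx, 37293 to 37414 in mdx, 33995 to 36364 in transgenic and 18303 to 18786 in wild type. Smooth muscle genes (0 of 8 called) summed to 14210 to 15249 in transgenic mdx, 14725 to 16735 in mdx, 14225 to 16017 in transgenic and 13201 to 14604 in wild type. This list shares Des with the regeneration list. On the C2C12 arrays Acta2 was at log2 12.88 to 13.14 and Des at 11.21 to 12.04, against 4.85 to 5.11 for Myh11. The smooth muscle sum is therefore not particular to smooth muscle. Schwann cell genes (0 of 7 called, 10 listed) summed to 8012 to 9284 in transgenic mdx, 8977 to 12236 in mdx, 9190 to 11126 in transgenic and 10935 to 11120 in wild type. On the arrays of the muscle cell line C2C12 the list member Pmp22 was at log2 12.37 to 12.75 and Sox10 at 4.67 to 5.23. The Schwann cell sum is therefore not particular to nerve. These smooth muscle and Schwann cell counts hold for mdx set against wild type and also for transgenic mdx set against mdx. Over all probe sets 1.97% were called higher and 1.39% lower in the first contrast, and 2.58% and 1.39% in the second. At these shares the counts do not set the lists apart. In that second contrast 3 of 15 macrophage genes fell, beside 1.39% of all probe sets called lower, and 3 of 9 measured skin epithelium genes rose, beside 2.58% called higher. Of 10 endothelial genes 2 fell there and all 10 had a negative value, with a median log2 change of -1.03. Endothelial sums were 2697 to 3057 in transgenic mdx, 5370 to 5560 in mdx, 3319 to 3582 in transgenic and 5138 to 6011 in wild type. In whole muscle, fewer cells of a type and less RNA per cell cannot be told apart, and the part of these shifts in the Dmd values was not tested.

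The products of a list of 16 genes join dystrophin in the membrane complex. Of 14 measured members 1 fell and 0 rose in mdx against wild type, beside 1.39% of all probe sets called lower and 1.97% called higher, with a median log2 change of -0.13 beside -0.02 over all probe sets. The one that fell was Sgcd, delta-sarcoglycan, a small membrane glycoprotein of the sarcoglycan group. It had 135.4 and 126.1 in mdx, against 301.0 and 337.5 in wild type (-1.29 ± 0.22, adjusted p = 0.0162). It had no call in transgenic mdx against mdx, with 179.0 and 139.8 in transgenic mdx (0.28 ± 0.22, adjusted p = 0.573). Against wild type it was lower in transgenic mdx as well (-1.01 ± 0.22, adjusted p = 0.0295). The call in mdx was lost without wild-type replicate 1 (adjusted p = 0.0843), wild-type replicate 2 (0.117) or mdx replicate 2 (0.0675), and that in transgenic mdx without either wild-type array (0.106 and 0.172) or transgenic mdx replicate 2 (0.195).

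Utrophin, the autosomal relative of dystrophin that can stand in for it at the membrane, is encoded by Utrn. Its probe set had 4111 and 3743 in mdx, against 4418 and 4737 in wild type, and 5918 and 2736 in transgenic mdx. The transgenic mdx arrays lie on either side of all others but transgenic replicate 1. The log2 difference was -0.22 ± 0.31 in mdx against wild type (adjusted p = 0.811) and 0.04 ± 0.31 in transgenic mdx against mdx (adjusted p = 0.974). Another of its 3 probe sets gave 0.27 ± 0.55 and -1.40 ± 0.55 in these comparisons (adjusted p = 0.886 and 0.193). Dystroglycan, which ties dystrophin to laminin and whose alpha subunit carries the glycans that Galgt2 modifies, is encoded by Dag1. It had 3906 and 3867 in mdx, against 3086 and 3187 in wild type, and differed by 0.31 ± 0.21 (adjusted p = 0.541). With 1801 and 1999 in AAV-Galgt2 muscle, against 915.2 and 1199 in PBS muscle, it differed by 0.86 ± 0.21 (adjusted p = 0.590). Its 4 probe sets ran the same way in both comparisons, with 0.19 to 0.43 in the first and 0.81 to 1.21 in the second. In transgenic mdx against mdx all 4 were negative, from -1.23 to -0.20, with no call. The neuronal nitric oxide synthase gene Nos1, whose product is anchored at the membrane by dystrophin, was lower in transgenic mdx than in wild type on its brightest probe set (-2.22 ± 0.52, adjusted p = 0.0399). Its value was -1.34 without transgenic mdx replicate 2 (adjusted p = 0.224), and its 3 other probe sets had no call. Without wild-type replicate 1 or 2, either transgenic array or either AAV-Galgt2 array it also had no call (adjusted p = 0.189, 0.130, 0.0530 and 0.0690).

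Among 14 long transcripts of muscle such as titin and nebulin, 0 rose and 0 fell in mdx against wild type (median -0.10), which at 1.39% called lower over all probe sets does not set the list apart. In transgenic mdx against mdx 2 rose and 0 fell (median 0.07), beside 2.58% called higher.

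Of 14 genes listed for the part of the X chromosome around Dmd, 7 were measured by a probe set with 1 symbol. Their distances from Dmd were not worked out here. Tab3, which encodes an adaptor of the kinase TAK1, had 458.3 and 255.7 in mdx, against 1127 and 956.7 in wild type. It fell by 1.60 ± 0.28 on the log2 scale (adjusted p = 0.0175), beside 1.39% of all probe sets called lower. In transgenic mdx it had 804.4 and 1005. It was higher there than in mdx by 1.39 ± 0.28 (adjusted p = 0.0263), beside 2.58% of all probe sets called higher. In transgenic muscle it had 954.6 and 805.7, so its transgenic mdx and transgenic values overlap, and both mdx values lie below all others of the set. In AAV-Galgt2 against PBS it gave -0.18 ± 0.28 (adjusted p = 0.961). The call in mdx was lost without wild-type replicate 1 (adjusted p = 0.120), wild-type replicate 2 (0.0888) or mdx replicate 2 (0.0650), and the rise without mdx replicate 2 (0.0916), transgenic mdx replicate 2 (0.153) or either AAV-Galgt2 array (0.0501).

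The other 6 measured genes of the X chromosome list had no call in any comparison. In mdx against wild type 1.39% of all probe sets were called lower and 1.97% higher, so having no call does not set them apart. With Tab3 included, the median log2 change of the list there was -0.10, beside -0.02 over all probe sets. In mdx against wild type Zfx, a zinc finger transcription factor, was at -1.28 ± 0.34 (adjusted p = 0.0783). Pola1, the catalytic subunit of DNA polymerase alpha, was at 0.18 ± 0.42 (adjusted p = 0.903). Il1rapl1, a synaptic receptor, was at -0.11 ± 0.23 (adjusted p = 0.883), Nr0b1, a nuclear receptor, at 0.03 ± 0.22 (adjusted p = 0.975), Fthl17a, a ferritin-like gene, at -0.10 ± 0.21 (adjusted p = 0.886), and Dcaf8l at -0.01 ± 0.19 (adjusted p = 0.991). In transgenic mdx against mdx their values ran from -0.03 (Dcaf8l) to 0.50 (Zfx).

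**Figure D3:**
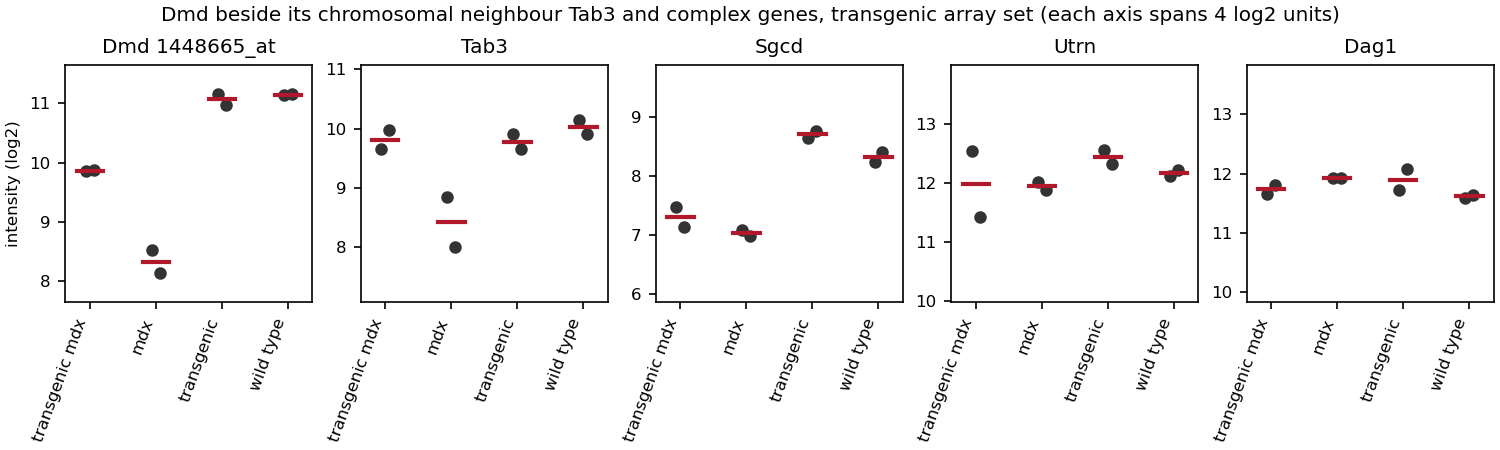
Intensity (log2) of Dmd probe set 1448665_at, its X chromosome neighbour Tab3, and the complex genes Sgcd, Utrn and Dag1 in the transgenic array set, with 2 arrays per group as points and the mean as a bar. Each axis spans 4 log2 units. Tab3 is low in mdx and not in transgenic mdx, Sgcd is low in both, and the 2 transgenic mdx arrays of Utrn are far apart.

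The genes most like each called Dmd probe set were ranked by Pearson's r over the 8 arrays of the first set, among 19228 probe sets above the median level with 1 other symbol. These arrays make only 4 groups, and they share the mdx arrays in which Dmd is lowest. For 1448665_at the closest were Cdc5l (r = 0.981), a splicing factor, Bod1l (0.971), 2810002D19Rik (0.966), Mphosph8 (0.966) and Prkg1 (0.960), a cyclic GMP-dependent kinase. For 1417307_at they were Mphosph8 (0.972), a chromatin protein, Cldn1 (0.968), a tight junction claudin, 2810002D19Rik (0.962), Mapk8 (0.960), the kinase JNK1, and Pum2 (0.957), an RNA-binding repressor of translation. The likeness was in shape more than in size. For mdx minus wild type the log2 difference of Prkg1 was -1.86 and that of Cdc5l -0.36. For transgenic mdx minus mdx they were 1.37 (Prkg1) and 0.19 (Cdc5l). These genes were picked for their pattern on the same arrays, so the differences describe them and were not tested. Ranked over the 4 group means instead, the 10 places went to other genes, led by Depdc5 for 1417307_at and Hnrnph1 for 1448665_at.

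In the cell lines the bright Dmd probe sets changed more than nearly any other probe set, and in opposite directions in the 2 lines as labelled. With 1 array per condition there is no test. In C2C12-Galgt2, 1448665_at had 423.3 in myotubes and 17.7 in myoblasts, a log2 difference of 4.58 that 12 of 45036 probe sets reached, itself included. Probe set 1417307_at had 480.9 in myotubes and 24.3 in myoblasts (4.31, reached by 17). The dim 1443315_at had 27.0 in myotubes and 10.1 in myoblasts (1.41), and 1430320_at had 27.0 in myotubes and 12.1 in myoblasts (1.16). All 4 probe sets were at least 2-fold higher in C2C12-Galgt2 myotubes, beside 4.39% of all probe sets. With a pseudocount of 32 the dim ones were at 0.49 (1443315_at) and 0.42 (1430320_at), so 2 of 4 remained past 2-fold. In C2C12-Galgt2 myoblasts only 3.5% and 7.6% of probe sets were dimmer than these.

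In untransfected C2C12 the array labelled myotube had 36.8 on 1448665_at and the array labelled myoblast 561.0, a difference of -3.93 that 26 of 45036 probe sets reached. Probe set 1417307_at had 72.6 on the array labelled myotube and 494.7 on the array labelled myoblast (-2.77, reached by 140). At least 2-fold lower were thus 2 of 4 members, beside 3.59% of all probe sets. Probe set 1430320_at went the other way, with 36.7 on the array labelled myotube and 15.9 on the array labelled myoblast (1.21), and it was at least 2-fold higher, beside 3.55% of all probe sets. With a pseudocount of 32 it was at 0.52 and no longer past 2-fold. Probe set 1443315_at had 15.2 and 17.3 in that order (-0.18). Each of these 2 dim probe sets was below the median of all 4 cell line arrays.

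Differentiation markers of the same arrays go against the labels of the untransfected pair. Of 15 myotube genes 15 were lower on the array labelled C2C12 myotube than on the array labelled myoblast, with a median of -0.98, and of 11 proliferation genes 10 were higher, with a median of 0.87. In C2C12-Galgt2 all 15 myotube genes were higher in myotubes, with a median of 0.73, and all 11 proliferation genes lower, with a median of -1.08. At least 2-fold in these directions were 5 of 15 and 7 of 11 in C2C12-Galgt2, and 7 of 15 and 3 of 11 in C2C12. Over all probe sets, 4.39% were at least 2-fold higher in C2C12-Galgt2 myotubes, and the share lower there is not given here. In C2C12, 3.59% of all probe sets were at least 2-fold lower and 3.55% higher on the array labelled myotube. Some myotube genes were bright in C2C12-Galgt2 myoblasts already, such as Myog, at log2 12.88 there and 13.15 in myotubes. The transcription factor gene Mef2c, an activator of muscle genes, had the largest difference of the 15 in each line. It was at a log2 level of 12.75 in C2C12-Galgt2 myotubes and 8.35 in myoblasts, and at 11.06 on the array labelled C2C12 myotube and 13.02 on that labelled myoblast. Ccnd1, the cyclin of dividing cells, was at 8.24 in C2C12-Galgt2 myotubes and 9.68 in myoblasts, and at 11.76 on the array labelled C2C12 myotube and 9.29 on that labelled myoblast. In each line the array with the higher bright Dmd signal is the one with the higher myotube markers. Any comparison of the 2 lines at the same label rests on that pair: 1448665_at differed by -4.99 between C2C12-Galgt2 myoblasts and the array labelled C2C12 myoblast, and by 3.52 between C2C12-Galgt2 myotubes and the array labelled C2C12 myotube. The first of these is beside 3.96% of all probe sets at least 2-fold lower, and the second beside 3.82% at least 2-fold higher.

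**Figure D4:**
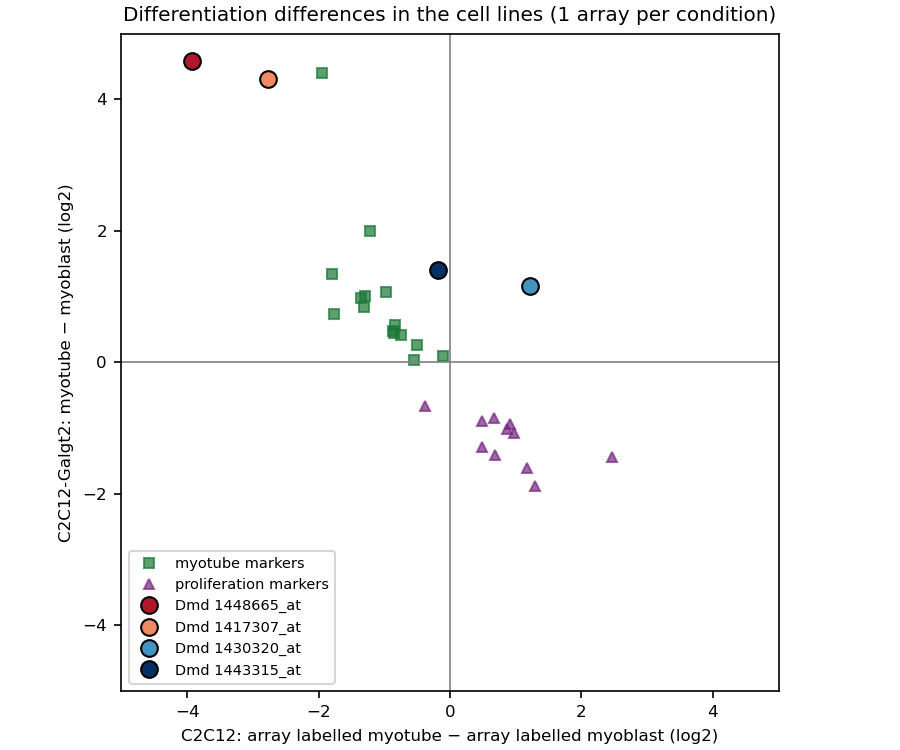
Log2 difference between the arrays labelled myotube and myoblast in C2C12-Galgt2 (vertical) and in C2C12 (horizontal) for the 4 Dmd probe sets, 15 myotube genes and 11 proliferation genes, with 1 array per condition. Probe sets 1448665_at and 1417307_at lie at the upper left with the myotube genes, at 4.58 and 4.31 vertically and -3.93 and -2.77 horizontally, and the proliferation genes lie below 0 vertically.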

How the data were processed

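RNA was extracted with Trizol and RNeasy columns and amplified with the NuGEN Ovation system from 25 ng, per the labels' protocols. The authors deposited 1 intensity for each probe set, made with GCOS and RMA per the submitters' processing notes, with no versions given. The deposited intensities are on a linear scale, judging from their range, and log2 was taken here. Whether the array sets were processed together is not given in the sources used here. Probe sets were named through GEO's platform annotation (34958 with 1 symbol, 932 with several, 9211 with none listed), and 64 control probe sets were left out.

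One model with 6 group means was fitted with limma 3.58.1 and eBayes (R 4.3.3) to all 45037 probe sets of the 12 muscle arrays. P-values were adjusted by Benjamini-Hochberg over all probe sets, and calls needed an adjusted p under 0.05. The cell lines have no replicates, so a 2-fold difference was counted there, and 1 probe set with an empty cell was left out. Genes on lists used their brightest probe set over the muscle arrays, or over the cell line arrays for the cell lines. Named genes are all Dmd probe sets, Utrn, Dag1, called complex genes, the X neighbours and the 5 probe sets most like each called Dmd probe set. Members and lists were chosen with earlier results of these data known. Arrays carry no depth, and their number limits the precision. Data for 45037 probe sets were simulated with the measured spread of each. For mdx against wild type, 61% of 100 falls of 2 on the log2 scale and 7% of 100 falls of 1 were called. There were 2 false calls among the unchanged probe sets. Only those falls were put in, while 1511 probe sets were called in the measured data, so these shares need not carry over. Alternatives were the fit of 1 array set, the replicate number as a block, median shift, quantile normalization, a filter on low values, a pseudocount of 32, 1 probe set per gene, eBayes with trend, array weights and each array left out.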

Additional observations from a re-analysis of the deposited data

Results flagged for a closer look

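The response of mdx muscle to the Galgt2 transgene differed from its response to AAV-Galgt2 on probe set 1448665_at, by 1.53 ± 0.29 on the log2 scale (limma, adjusted p = 0.0485, both transgenic mdx arrays above both mdx arrays, beside 0.566% of all probe sets called higher). This comparison was chosen after the data were examined. It did not pass with 10 of the 12 arrays left out in turn (adjusted p from 0.0648 to 0.211 in those 10). The transgenic mdx mice are of mixed substrain and the injected mice are not, and age at injection is not given in the sources used here. The responses also come from different array sets, and the comparator was mdx muscle in one and PBS-injected mdx muscle in the other. These differences cannot be told apart from the route of delivery. Probe set 1417307_at gave 1.59 ± 0.51 (adjusted p = 0.149).

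Probe sets 1448665_at and 1417307_at moved in opposite directions in the 2 cell lines as labelled, which was not tested, since there is 1 array per condition. The differences between arrays labelled myotube and myoblast were 4.58 and 4.31 in C2C12-Galgt2, against -3.93 and -2.77 in C2C12. The myotube genes turn with them (medians of 0.73 in C2C12-Galgt2 and -0.98 in C2C12). Dim probe set 1430320_at gave 1.16 in C2C12-Galgt2 and 1.21 in C2C12, and 0.42 and 0.52 with a pseudocount of 32.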

How the results depend on the processing

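Of the values for the Dmd probe sets, the signs that turned were all those of differences without a call, and the cause was not tested for these or for the lost calls. With arrays shifted to one median, 1417307_at gave -0.01 in transgenic against wild type and 1443315_at gained a call over both pairs of groups (-1.53, adjusted p = 0.0482), as it did with 1 probe set per gene, where fewer are tested (-1.49, adjusted p = 0.0464). Quantile normalization gave 0.00 for 1430320_at in transgenic mdx against mdx and -0.03 for 1448665_at in AAV-Galgt2 against PBS. A pseudocount of 32 gave -0.06 for the interaction of 1443315_at. With the array set alone Tab3 lost both its fall in mdx (0.0508) and its rise in transgenic mdx (0.0742), and with array weights the rise (0.0562). In transgenic mdx against mdx, 1417307_at lost its call with the array set alone (1.56, adjusted p = 0.0968), a pseudocount of 32 (1.41, 0.0577) and array weights (1.56, 0.0753). Against wild type it lost it with the array set alone (-1.81, 0.0592). For the transgene response minus the AAV-Galgt2 response, 1448665_at stayed at 1.53 and lost its call with low values left out (0.0520), eBayes with trend (0.0573) and array weights (0.0555). The fit of 1 array set could not be fitted for that contrast. Exact permutation within transgenic and non-transgenic arrays gave -2.61 for 1417307_at and -2.01 for 1448665_at with p = 0.0556 each, the smallest that 36 arrangements allow.

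Nothing in the labels pairs samples of different groups by replicate number. Correlations of replicate differences between groups ran from -0.35 (wild type and mdx) to 0.54 (wild type and transgenic). That of AAV-Galgt2 and PBS was -0.02, and what the groups share along the replicate number was not tested. With the replicate number as a block, 1417307_at lost its call in transgenic mdx against mdx (1.56, adjusted p = 0.0563) and 1448665_at that of the transgene response minus the AAV-Galgt2 response (1.53, 0.0777). Sgcd and Nos1 lost their calls in transgenic mdx against wild type with it (0.0673 and 0.0544), as they did with the array set alone (0.0579 and 0.0764), and Sgcd also with eBayes trend (0.0648). Calls numbered 922 with the block and 1511 without it in mdx against wild type, and 60 and 327 over both pairs of groups. In AAV-Galgt2 against PBS 0 were called with the block, with the PBS numbers as given or crossed, and which muscles share a mouse is unknown here.

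With each array left out in turn, mdx against wild type ran from -3.99 to -2.75 (1417307_at), -1.50 to 0.24 (1430320_at) and -1.89 to -1.15 (1443315_at). Over both pairs of groups it ran from -2.92 to -2.30 (1417307_at) and -1.90 to -1.09 (1443315_at). Transgenic against wild type ran from -0.07 to 0.15 (1417307_at) and -0.17 to 0.01 (1448665_at). Transgenic mdx against mdx ran from 0.94 to 2.18 (1417307_at), -0.94 to 0.80 (1430320_at) and -0.09 to 1.54 (1443315_at). Transgenic mdx against wild type ran from -2.01 to -1.61 (1417307_at), -1.61 to 0.02 (1443315_at) and -1.30 to -1.27 (1448665_at). Transgenic mdx against transgenic ran from -2.05 to -1.65 (1417307_at), -1.46 to -0.64 (1430320_at), -2.28 to -0.66 (1443315_at) and -1.30 to -1.11 (1448665_at). The interaction ran from 0.90 to 2.14 (1417307_at), 1.43 to 1.81 (1448665_at), -1.29 to 0.45 (1430320_at) and -0.77 to 0.86 (1443315_at). AAV-Galgt2 against PBS ran from -0.30 to 0.23 (1417307_at) and -0.14 to 0.16 (1448665_at). The transgene response minus the AAV-Galgt2 response ran from 0.97 to 2.22 (1417307_at), -0.13 to 1.61 (1430320_at) and 1.33 to 1.72 (1448665_at).

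Counts over all probe sets were less stable. They ran from 22 to 2429 in mdx against wild type (1511 with all arrays), 1 to 66 in transgenic mdx against transgenic (9), 2 to 1232 over both pairs (327), 174 to 979 in transgenic against wild type (836), 452 to 2226 in transgenic mdx against mdx (1790), 633 to 2788 in transgenic mdx against wild type (2220), 0 to 40 for the interaction (2), 0 to 370 in AAV-Galgt2 against PBS (0) and 16 to 1626 for the difference of responses (404). With the array set alone they were 865, 0, 179, 343, 745, 1207 and 0 for the first 7 of these.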
